A study of Mus musculus with 10 samples.

Results

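Fcgr1, Fcgr2b, Fcgr3, Fcgr4, Fcer1g, Tyrobp and Syk are 7 of the 55291 genes in the table of estimated counts, and all 7 were among the 17015 genes with enough counts to test. They were chosen by the level of Fcer1g, which was higher with sgBap1 and with CCl4, so their levels in sgBap1-Veh against NTC-Veh livers, and in CCl4 against vehicle livers, are a description and not a test. The question of the study was how a reduction of Bap1 in hepatocytes changes the response of the liver to damage. Bulk RNA-seq was made from the right liver lobe of 10 mice, all female and 16 to 20 weeks old. There were 2 mice each for NTC-Veh and sgBap1-Veh and 3 each for NTC-CCl4 and sgBap1-CCl4. All mice carried a Cas9 gene behind a Lox-Stop-Lox cassette and received 1e12 particles of an AAV8 virus that carries a guide RNA and Cre. Cre was driven by the TBG promoter, which is active in hepatocytes, so that editing was directed at these cells only. The guide was either a non-targeting control (NTC) or directed at Bap1 (sgBap1). On day 10 the mice were injected intraperitoneally with 10 µL per g of body weight of olive oil (Veh) or of 1 part of CCl4 in 9 parts of olive oil, and livers were taken 48 h later. CCl4 is a solvent whose breakdown by cytochrome P450 enzymes injures hepatocytes near the central veins.

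Fc gamma receptors bind the constant part of IgG, so that macrophages, monocytes and neutrophils can take up or attack what antibodies have coated. Fcgr1, Fcgr3 and Fcgr4 are the activating receptors of the mouse and need the common gamma chain, Fcer1g, which carries an immunoreceptor tyrosine-based activation motif (ITAM). Once Src family kinases have phosphorylated an ITAM, the kinase Syk binds it and passes the signal on. Tyrobp, also called DAP12, is the other ITAM adaptor of myeloid cells and serves receptors of the TREM and related families. Fcgr2b carries an inhibitory motif (ITIM) instead, and in the liver it is known for its high level on sinusoidal endothelial cells, where it removes immune complexes from the blood. Hepatocytes, the cells that were edited, are not known as a main source of these 7 RNAs. In RNA from whole tissue, fewer cells of a type and less RNA per cell cannot be told apart.

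The total estimated count per liver was 3.30e+07 to 5.22e+07, and levels are in CPM, counts scaled to the size of each library as normalised by TMM. The lowest estimated count of any of the 7 genes in a liver was 79, far above the 3 counts that serve as a floor. Bap1, the targeted gene, was at 34.8 and 34.8 CPM for NTC-Veh, 17.5 and 19.5 for sgBap1-Veh, 29.5 to 31.5 for NTC-CCl4 and 17.0 to 21.8 for sgBap1-CCl4, and its groups by guide did not overlap. It was lower in sgBap1 livers with vehicle (log2 fold change -0.91, edgeR quasi-likelihood test, adjusted p = 0.0208) and after CCl4 (-0.65, adjusted p = 0.0295), though the 2nd call was lost in 6 of the 10 fits that left out 1 liver and the 1st in 4. The hepatocyte markers Alb, Apoa1, Apob, Ttr and Hnf4a summed to at least 6.60e+04 CPM in every liver. The liver sgBap1-CCl4 2 stood apart by its fat cell genes: the adipocyte markers Adipoq, Plin1, Lep and Retn summed to 88.8 CPM there, while Adipoq was at 0.0425 CPM or less in the 9 other livers. Results that rest on this liver are given with and without it.

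The receptor genes lie close together. Fcgr2b (chr1:170958617-170976547, minus strand), Fcgr4 (chr1:171018920-171029761, plus strand), Fcgr3 (chr1:171051174-171064935, minus strand) and Fcer1g (chr1:171229572-171234365, minus strand) follow one another on GRCm38 with gaps of 42.4, 21.4 and 165 kb in GENCODE vM21. Fcgr1 (chr3:96282909-96293969, minus strand), Tyrobp (chr7:30413760-30417585, plus strand) and Syk (chr13:52583173-52648792, plus strand) lie on other chromosomes. Fcgr3 shares 166 of the 1733 distinct 50-base stretches of its transcripts with Fcgr2b, or 9.58%, and 4.38% of those of Fcgr2b occur in other genes. Reads from such stretches can be assigned to either gene, so that the counts of these 2 receptors are uncertain by an amount that was not measured. The other 5 genes share no 50-base stretch with another gene.

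Myeloid genes often carry the core of the site for PU.1, the transcription factor encoded by Spi1, next to their start. The letters GAGGAA were searched on both strands in the 250 bases before each RefSeq start, and 23.3% of all 32851 promoters hold them. RefSeq promoters (GRCm38.p6) were matched for 6 of the 7 genes, with Tyrobp not matched. The letters occur before the starts of Fcgr1, Fcgr3, Fcgr4 and 1 of the 2 starts of Syk, and not in these windows of Fcgr2b and Fcer1g. The stretches of the 3 activating receptors, shown because they lie outside exons, are given 5′ to 3′ on the strand of the gene with the match in capitals, here as its complement TTCCTC:
Fcgr1, chr3:96293992-96294051, outside the gene: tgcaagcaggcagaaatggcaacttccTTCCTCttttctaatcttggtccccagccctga
Fcgr3, chr1:171059404-171059463, in an intron of a longer transcript: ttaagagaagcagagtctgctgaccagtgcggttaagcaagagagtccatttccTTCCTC
Fcgr4, chr1:171018860-171018919, outside the gene: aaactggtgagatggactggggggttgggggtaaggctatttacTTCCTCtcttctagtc
The match ends 49 bases before the start of Fcgr1, 0 and 9 bases before the 2 starts of Fcgr3 and 16 bases before that of Fcgr4. A match is a description of the sequence and shows no binding, and its link to the levels of these genes was not tested.

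Spi1 itself was at 4.24 ± 0.938 CPM (SD, n = 2) for NTC-Veh, 7.83 ± 2.29 (n = 2) for sgBap1-Veh, 19.5 ± 1.70 (n = 3) for NTC-CCl4 and 20.7 ± 3.44 (n = 3) for sgBap1-CCl4.

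Per kilobase of exon, which allows genes to be compared, the adaptors stood at the top. In NTC-Veh livers Tyrobp was at 15 ± 4.47 CPM per kb (SD, n = 2), Fcer1g at 8.25 ± 1.81, Fcgr2b at 7.74 ± 0.666, Fcgr3 at 3.90 ± 0.273, Fcgr4 at 3.28 ± 1.55, Fcgr1 at 1.08 ± 0.332 and Syk at 0.669 ± 0.18. Fcer1g and Fcgr2b overlapped in this order, as did Fcgr3 and Fcgr4, while Tyrobp lay above Fcer1g and Fcgr1 above Syk in both livers. In NTC-CCl4 livers (n = 3) the order of means was Tyrobp 62.0, Fcer1g 39.9, Fcgr2b 12.5, Fcgr3 12.3, Fcgr4 11.3, Fcgr1 7.35 and Syk 3.22 CPM per kb. By the length of all exons Fcgr2b, Fcgr3 and Fcgr4 overlapped there, so that the lead of Fcgr2b over Fcgr3 and Fcgr4 seen with vehicle was not seen. Fcgr2b stayed above Fcgr1. Divided by the longest transcript instead of all exons, Fcgr2b came before Fcer1g in NTC-Veh livers (12.6 against 10.6). In NTC-CCl4 livers Fcgr2b then kept its lead over Fcgr3 and Fcgr4 (means of 20.4 against 15.9 and 11.3). The loss of this lead with CCl4 therefore depends on the length used.

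**Figure D1:**
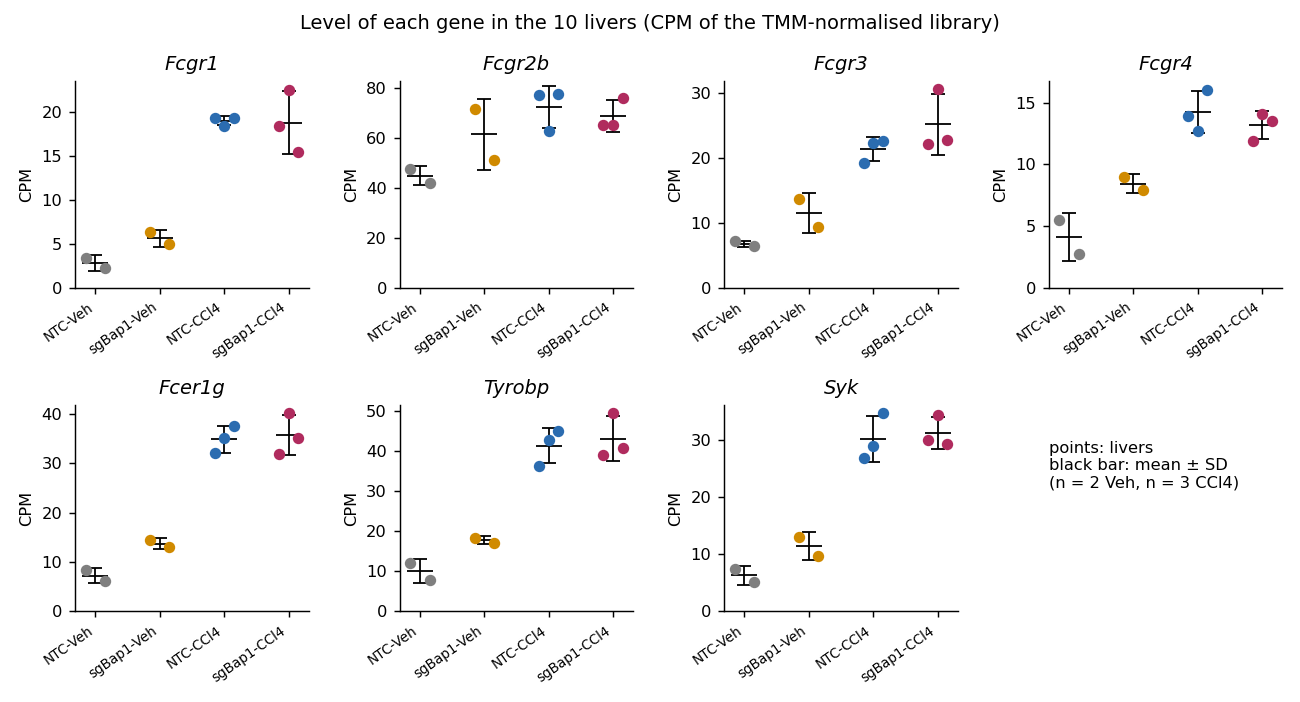
Level of the 7 genes in each of the 10 livers, in CPM of the TMM-normalised library on a linear axis from 0. Points are livers, and black bars are the mean ± SD of a group (n = 2 with vehicle, n = 3 with CCl4). With vehicle, both sgBap1 livers lie above both NTC livers for each gene, and the 2 CCl4 groups overlap.

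The adaptor Fcer1g was at 8.33 and 6.10 CPM for NTC-Veh, 14.5 and 12.9 for sgBap1-Veh, 32.0, 35.2 and 37.5 for NTC-CCl4 and 31.9, 40.2 and 35.2 for sgBap1-CCl4. The groups formed 3 steps that did not overlap, NTC-Veh, sgBap1-Veh and the CCl4 livers of both guides. Since Fcer1g was chosen for these rises, the steps are a description. The share of all tested genes with such steps was not counted. In fold terms Fcer1g was 1.90 times higher with sgBap1 (log2 0.93, SE 0.16) and 4.84 times higher with CCl4 in NTC livers (log2 2.27, SE 0.16).

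Tyrobp followed the same steps. It was at 12.1 and 7.90 CPM for NTC-Veh, 18.4 and 17.0 for sgBap1-Veh, 36.4, 42.7 and 44.9 for NTC-CCl4 and 38.9, 49.4 and 40.7 for sgBap1-CCl4. Its log2 differences were 0.82 (SE 0.20) with sgBap1 and 2.05 (SE 0.19) with CCl4 in NTC livers. The log2 ratio of Tyrobp to Fcer1g within a liver lay between 0.18 and 0.54 in all 10 livers, with geometric mean ratios of 1.37 for NTC-Veh and 1.18 for NTC-CCl4.

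Syk, the kinase that both adaptors recruit, was at 7.46 and 5.07 CPM for NTC-Veh, 13.1 and 9.62 for sgBap1-Veh, 26.8, 29.0 and 34.7 for NTC-CCl4 and 30.1, 34.4 and 29.2 for sgBap1-CCl4. The log2 differences were 0.86 (SE 0.21) with sgBap1 and 2.27 (SE 0.20) with CCl4 in NTC livers. Its ratio to Fcer1g within a liver had geometric means of 0.819 to 0.875 over the 4 groups.

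Among the receptors, Fcgr1, the high-affinity receptor for IgG, had the largest difference with CCl4. It was at 3.40 and 2.19 CPM for NTC-Veh, 6.30 and 4.94 for sgBap1-Veh, 19.3, 18.4 and 19.3 for NTC-CCl4 and 18.5, 22.5 and 15.5 for sgBap1-CCl4. This is a log2 difference of 1.01 (SE 0.23) with sgBap1 and of 2.76 (SE 0.22), or 6.79-fold, with CCl4 in NTC livers.

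Fcgr3, a low-affinity activating receptor, was at 7.10 and 6.43 CPM for NTC-Veh, 13.6 and 9.32 for sgBap1-Veh, 19.2, 22.3 and 22.6 for NTC-CCl4 and 22.2, 30.6 and 22.8 for sgBap1-CCl4. The highest value came from the liver with fat cell genes. Its log2 differences were 0.77 (SE 0.21) with sgBap1 and 1.66 (SE 0.19) with CCl4 in NTC livers.

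Fcgr4, an activating receptor for certain IgG subclasses, was at 5.50 and 2.74 CPM for NTC-Veh, 8.96 and 7.90 for sgBap1-Veh, 13.9, 12.7 and 16.1 for NTC-CCl4 and 11.9, 14.1 and 13.5 for sgBap1-CCl4. The 2 NTC-Veh livers differed from each other by more than the higher of them did from the lower sgBap1-Veh liver, and the standard errors were the largest of the 7 genes. The log2 differences were 1.03 (SE 0.26) with sgBap1 and 1.78 (SE 0.24) with CCl4 in NTC livers.

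Fcgr2b, the inhibitory receptor, was at 47.5 and 42.1 CPM for NTC-Veh, 71.6 and 51.3 for sgBap1-Veh, 77.0, 62.8 and 77.5 for NTC-CCl4 and 65.1, 65.0 and 76.0 for sgBap1-CCl4. It was the highest of the 7 in CPM and had the smallest differences, 0.46 (SE 0.17) with sgBap1 and 0.69 (SE 0.15) with CCl4 in NTC livers. One sgBap1-Veh liver reached the level of the CCl4 livers and the other did not.

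With vehicle, both sgBap1 livers were above both NTC livers for 7 of 7 genes, which 21.7% of all tested genes also showed, with 19.2% lower in this way. Only Fcer1g was called higher at an adjusted p under 0.05, against 0.276% of all tested genes called higher, 0.129% called lower and 0.406% called in either direction. The call was lost in 8 of the 10 fits that left out 1 liver and stayed without NTC-Veh 1 or sgBap1-CCl4 2. DESeq2's Wald test called 6 of the 7 genes, in a comparison in which it called 562 genes in all. Library size alone, a fit of only the 2 groups and the replicate number as a block each called 0 of the 7. In both vehicle groups replicate 1 was above replicate 2 for all 7 genes, against 51.3% and 50.9% of all tested genes, so the 7 values of a liver moved together and are not 7 separate pieces of evidence.

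With CCl4 in NTC livers the 3 CCl4 livers were above both vehicle livers for 7 of 7 genes, against 36.7% of all tested genes (35% lower), and 7 of 7 were called higher, against 27.4% (26.6% lower). This comparison shares the NTC-Veh livers with the one above. In sgBap1 livers the estimates were smaller. The log2 values were 1.74 (SE 0.21) for Fcgr1, 1.46 (SE 0.19) for Syk, 1.38 (SE 0.15) for Fcer1g, 1.28 (SE 0.18) for Tyrobp, 1.13 (SE 0.19) for Fcgr3, 0.64 (SE 0.23) for Fcgr4 and 0.16 (SE 0.15) for Fcgr2b. Of the 7 genes, 6 were called higher (29% of all tested genes, with 28% lower) and did not overlap between the groups (37.3%, with 34.9% lower), and Fcgr2b was not called and overlapped. The value of Fcgr2b was 0.43 without sgBap1-Veh 1 and -0.06 without sgBap1-Veh 2. The call of Fcgr4 was lost without any of 5 of the 10 livers, sgBap1-CCl4 2 among them. Scaled by library size alone, Fcgr2b was also called in this comparison, at a log2 difference of 0.63. The median of all tested genes was 0.52 under that scaling and 0.04 under TMM.

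**Figure D2:**
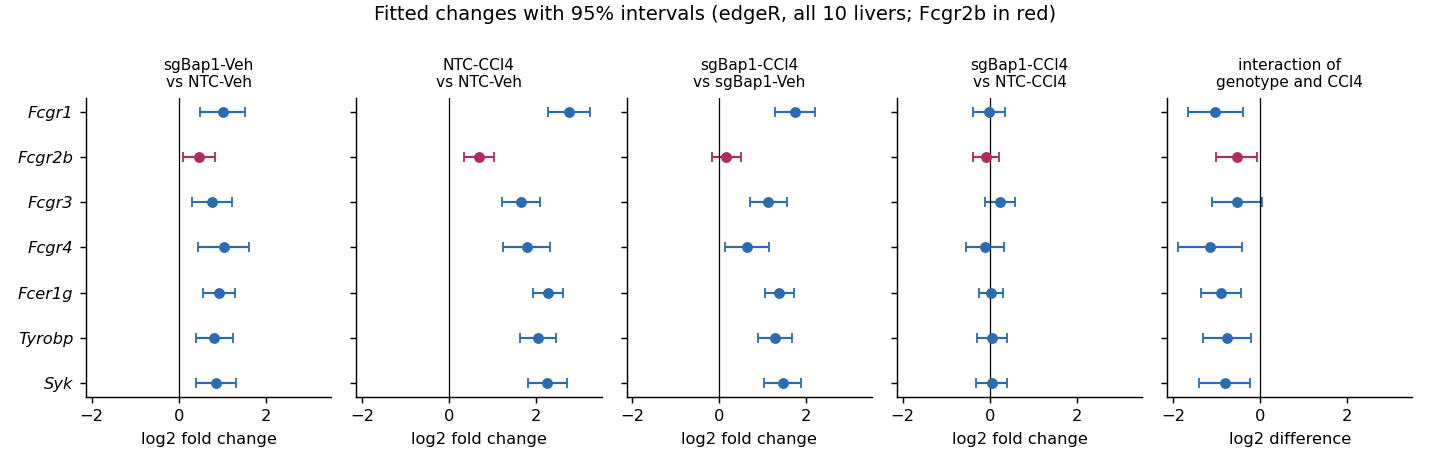
Fitted log2 fold changes of the 7 genes in the 4 pairwise comparisons and the interaction, with 95% intervals as bars (edgeR, all 10 livers in 1 model). Fcgr2b is in red. The first 3 comparisons were used to pick the genes and are shown as a description, and in the 4th all 7 intervals include 0.

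After CCl4 no difference by guide was detectable for any of the 7 genes, and this comparison was not used to pick them. None was called (edgeR, against 0.329% of all tested genes, 0.2% higher and 0.129% lower), none had an unadjusted p under 0.05, and DESeq2 called none. None of the 7 had groups that did not overlap, against 10.1% of all tested genes higher and 10.1% lower in this way. Fcer1g differed by a log2 of 0.04 (95% interval -0.24 to 0.31, edgeR adjusted p = 0.935). Tyrobp differed by 0.06 (-0.28 to 0.40, edgeR adjusted p = 0.910) and Syk by 0.05 (-0.30 to 0.41, edgeR adjusted p = 0.924).

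Among the receptors, the difference was -0.02 for Fcgr1 (95% interval -0.38 to 0.35, edgeR adjusted p = 0.979), with its sign depending on the scaling. It was -0.08 for Fcgr2b (-0.37 to 0.22, edgeR adjusted p = 0.845) and -0.11 for Fcgr4 (-0.55 to 0.33, edgeR adjusted p = 0.845). Fcgr3 had the largest estimate, 0.24 (-0.12 to 0.59, edgeR adjusted p = 0.536), which was 0.07 without the liver with fat cell genes. Differences of up to these bounds cannot be told from 0 with 3 livers against 3.

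The interaction, the log2 difference with CCl4 in sgBap1 livers minus that in NTC livers, was negative for all 7 genes. Since it subtracts the vehicle comparison that was used to pick them, its sign is no independent result. It was -1.15 (95% interval -1.87 to -0.42) for Fcgr4, -1.03 (-1.66 to -0.39) for Fcgr1 and -0.89 (-1.35 to -0.44) for Fcer1g. The other values were -0.81 (-1.39 to -0.22) for Syk, -0.76 (-1.31 to -0.21) for Tyrobp, -0.53 (-1.01 to -0.06) for Fcgr2b and -0.53 (-1.11 to 0.05) for Fcgr3. With edgeR no gene of the 17015 was called (0%), although 6 of the 7 genes and 10.4% of all tested genes had an unadjusted p under 0.05. DESeq2's Wald test called 420 genes, Fcer1g, Fcgr1 and Fcgr4 among them.

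Markers of leukocytes moved with the 7 genes, though not every list in every comparison. The summed level of the 5 pan-leukocyte and macrophage markers (Ptprc, Csf1r, Adgre1, Cd68 and Spi1) was 58.2 to 75.5 CPM for NTC-Veh, 120 to 160 for sgBap1-Veh, 240 to 319 for NTC-CCl4 and 258 to 316 for sgBap1-CCl4 livers. With sgBap1 in vehicle livers 2 of the 5 were called higher, beside 0.276% of all tested genes. They were Ptprc (log2 1.05, edgeR adjusted p = 0.0418), the phosphatase CD45 of all leukocytes, and Csf1r (1.06, edgeR adjusted p = 0.0487), a receptor of macrophages. These calls were lost in 7 and 9 of the 10 fits that left out 1 liver. The 5 Kupffer cell markers summed to 153 to 257, 321 to 492, 426 to 837 and 411 to 601 CPM in the same order of groups. The 5 recruited monocyte markers were at 14 to 14.8, 18.5 to 22.6, 110 to 127 and 105 to 125 CPM, and the 6 neutrophil markers at 3.46 to 6.59, 4.87 to 6.73, 18 to 23.9 and 17.7 to 27.3 CPM. In sgBap1 livers CCl4 gave 1 Kupffer cell marker called higher and 2 lower of 5, beside 29% and 28% of all tested genes. Their median log2 fold change there was -0.55, or -0.07 when scaled by library size alone, which called 1 higher and 1 lower.

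No Kupffer cell, monocyte or neutrophil marker was called with sgBap1 in vehicle livers, where 0.406% of all tested genes were called. An unadjusted p under 0.05 (edgeR) was seen for 3 of 5 Kupffer cell, 3 of 5 monocyte and 0 of 5 tested neutrophil markers. Of all tested genes 12.3% had one. The 5 hepatocyte markers summed to 1.17e+05 to 1.45e+05 CPM for NTC-Veh, 1.02e+05 to 1.09e+05 for sgBap1-Veh, 7.34e+04 to 8.35e+04 for NTC-CCl4 and 6.60e+04 to 8.49e+04 for sgBap1-CCl4. Mast cell and basophil markers, which include the other chains of the IgE receptor that Fcer1g completes (Fcer1a and Ms4a2), summed to 0.736 CPM or less in every liver. The part of each cell type in the levels of the 7 genes was not tested.

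Set against Ptprc of the same liver, the genes took different courses. The ratio of Fcgr4 to Ptprc had geometric means of 0.319 and 0.327 with vehicle (NTC, then sgBap1) and of 0.279 and 0.280 with CCl4, with livers that overlapped between vehicle and CCl4. The ratio of Fcer1g to Ptprc was 0.585, 0.532, 0.686 and 0.760 in the same order, and no vehicle liver reached the lowest CCl4 liver. Fcgr1 went further, from 0.224 and 0.217 with vehicle to 0.375 and 0.397 with CCl4, also without overlap. Syk was at 0.505, 0.436, 0.590 and 0.665, and Tyrobp at 0.803, 0.686, 0.811 and 0.913. Fcgr3 was at 0.555, 0.438, 0.420 and 0.532. Its NTC-CCl4 livers lay just below the NTC-Veh livers, and its sgBap1-CCl4 livers overlapped the vehicle livers.

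Against Ptprc, Fcgr2b took the opposite course to Fcer1g and Fcgr1, with a lower ratio in all CCl4 livers than in any vehicle liver. The level of Fcgr2b itself was higher with CCl4 in NTC livers, as given above, but by less than that of Ptprc. The ratio of Fcgr2b to Ptprc was 3.67 for NTC-Veh, 2.35 for sgBap1-Veh, 1.42 for NTC-CCl4 and 1.46 for sgBap1-CCl4, in 3 steps that did not overlap. Against the 2 macrophage markers Csf1r and Adgre1 NTC-Veh also lay highest, but sgBap1-Veh overlapped the CCl4 livers. The log2 ratio to Csf1r was -0.17 and -0.14 for sgBap1-Veh and -0.75 to -0.14 over the CCl4 livers, and that to Adgre1 was 1.6 and 1.42 against 0.68 to 1.64. The mean ratio to Fcgr2b was 0.0611 for NTC-Veh and 0.264 for NTC-CCl4 livers in the case of Fcgr1, 0.151 and 0.296 in that of Fcgr3 and 0.0869 and 0.196 in that of Fcgr4. In sgBap1-Veh livers the same ratios were 0.092, 0.186 and 0.139. The vehicle and CCl4 livers did not overlap in any of the 3 ratios, and these ratios describe the values already given.

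**Figure D3:**
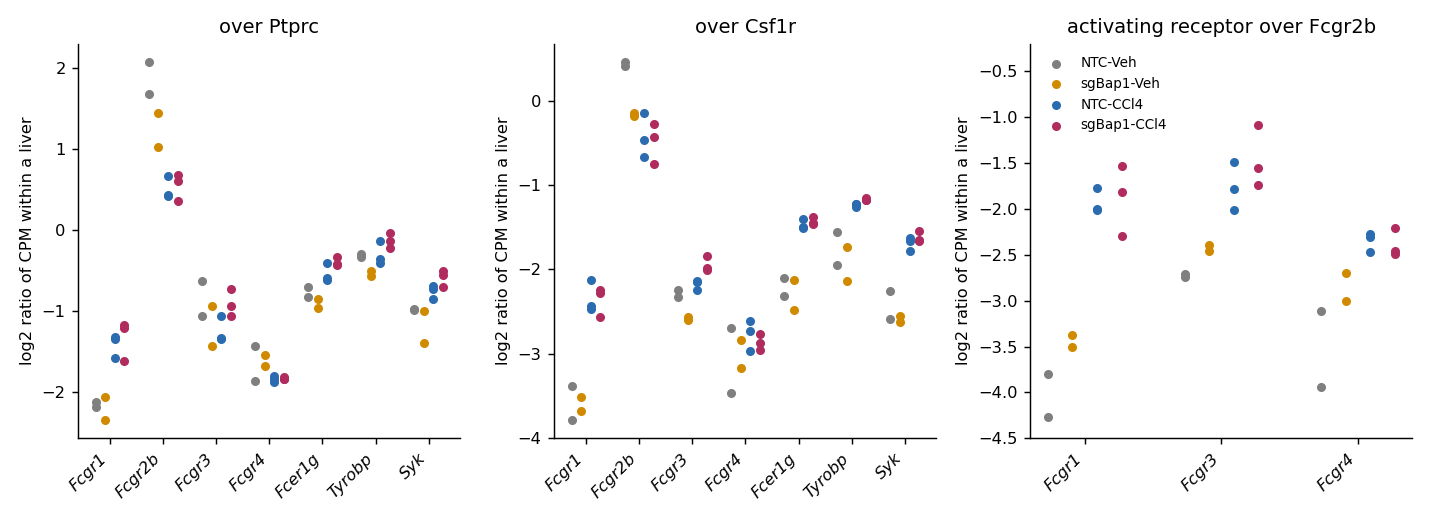
Ratio of each gene to Ptprc (left), to Csf1r (middle) and of each activating receptor to Fcgr2b (right), as log2 of the ratio of CPM within a liver. Points are livers coloured by group. Fcgr2b lies highest against Ptprc for NTC-Veh, lower for sgBap1-Veh and lowest with CCl4, and the activating receptors lie higher against Fcgr2b in all CCl4 livers than in any vehicle liver.

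Sinusoidal endothelial cells, the main home of Fcgr2b in the liver, were followed by 5 markers. Stab2, a scavenger receptor of these cells, was at 45.8 and 51.3 CPM for NTC-Veh, 50.7 and 39.4 for sgBap1-Veh, 40.9 to 46.9 for NTC-CCl4 and 39.3 to 40.3 for sgBap1-CCl4. The 5 markers summed to 137.3 to 143.8 CPM for NTC-Veh, 136.9 to 184.1 for sgBap1-Veh, 144.4 to 164.7 for NTC-CCl4 and 132.1 to 159.1 for sgBap1-CCl4. NTC-Veh lay just below NTC-CCl4, and every other pair of groups overlapped. With CCl4, 27.4% of all tested genes were called higher and 26.6% lower in NTC livers, and 29% and 28% in sgBap1 livers. Of the 5, Lyve1 (log2 1.6, edgeR adjusted p = 0.000142) and Oit3 (0.41, edgeR adjusted p = 0.0429) were called higher with CCl4 in NTC livers and none lower, with the call of Oit3 lost whenever 1 of the 5 NTC livers was left out. In sgBap1 livers Lyve1 (1.77) was called higher with CCl4 and Clec4g (-0.71) and Kdr (-0.40) lower, and leaving out 1 liver ended the call of Clec4g in 3 of 10 fits and that of Kdr in 6, sgBap1-CCl4 2 among them for both. Scaled by library size alone, Lyve1 and Oit3 were called higher in sgBap1 livers and none lower, and the value of Kdr turned to 0.08. Fcgr2b against Stab2 had mean ratios of 0.922, 1.36, 1.66 and 1.72 in the order of groups above. Stab2 is 1 of the 5 markers, and Lyve1 rose more with CCl4 than Fcgr2b under both guides. The direction of such a ratio with CCl4 therefore depends on the marker chosen.

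The genes whose course over the 10 livers was most like that of each member were sought by the root mean square (RMS) difference of log2 CPM, each gene centred on its own mean, among 13381 tested genes with a mean of at least 1 CPM. A smaller value means a closer course, and the livers share their library with every gene compared. For Fcer1g these were Cd52 (0.0502), Ctss (0.0725), Syk (0.0948), Tmsb4x (0.0952) and Cd48 (0.0954), so the kinase Syk ranked 3rd of all genes, and 7th without the liver with fat cell genes. For Tyrobp they were Adcy7 (0.0485), Tbc1d9 (0.0736) and Ifi30 (0.0756), and Fcer1g ranked 6th. For Syk they were Laptm5 (0.0734), Cd48 (0.0825) and Cd53 (0.0860), and Fcer1g ranked 5th, or 7th without that liver.

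The activating receptors had looser companions. Fcgr1 was nearest to Cyth4 (0.115), Plcg2 (0.116) and B430306N03Rik (0.117), Fcgr3 to Fam129a (0.108), Lrrc32 (0.123) and Ppp1r9b (0.125), and Fcgr4 to Traf3ip3 (0.101), Traf1 (0.130) and Treml4 (0.140). Fcgr2b was nearest to Robo4 (0.0682), Myct1 (0.0957) and Cyp4b1 (0.10). Its closest member of the 7, Fcgr4, was at 0.498 and ranked 7740th, while each of the other 6 had a closest member within its nearest 114 genes. Without the liver with fat cell genes the closest to Fcgr2b was Fcgr3, ranked 6988th, and the limit for the other 6 was 158 genes. In the same 9 livers, all 5 nearest genes of Fcgr2b and of Tyrobp stayed among their 5 nearest, 4 of 5 for Fcgr1, Fcgr4 and Syk, 3 for Fcer1g and 2 for Fcgr3.

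**Figure D4:**
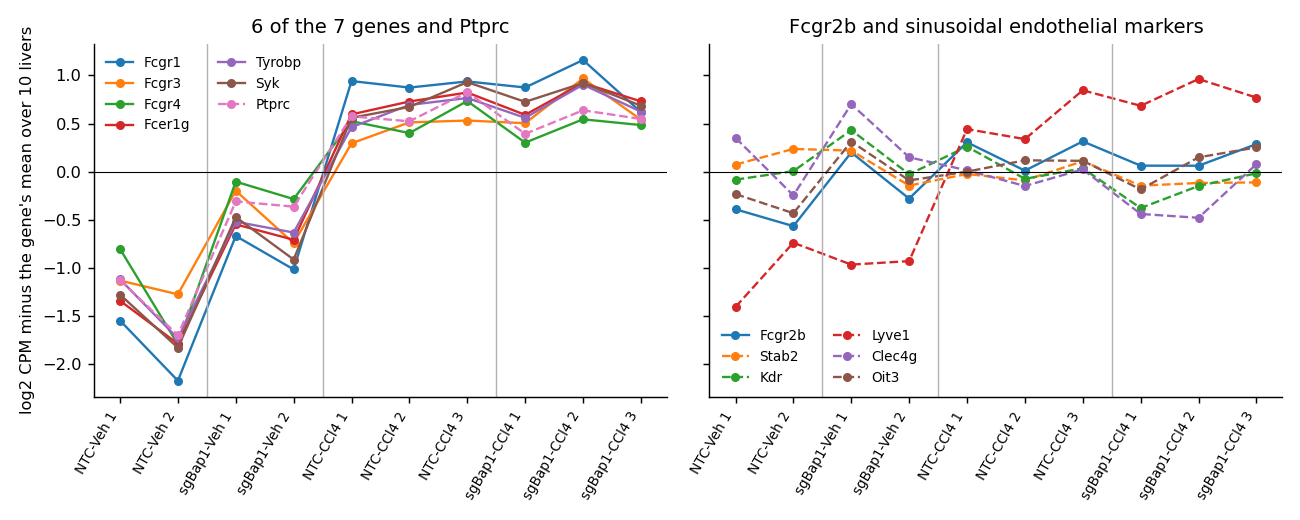
Log2 CPM of each gene minus its own mean over the 10 livers, which are named on the horizontal axis and parted by group with grey lines. Left, 6 of the 7 genes with Ptprc (dashed), which climb together from NTC-Veh to the CCl4 livers. Right, Fcgr2b with 5 markers of sinusoidal endothelial cells (dashed), of which Lyve1 climbs with CCl4 under both guides. Lines join the points of a gene and stand for no order of replicates.

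The wider pathway was followed in 79 other genes in 6 lists, 74 of which were tested. With sgBap1 in vehicle livers 2 of the 74 were called, both higher, against 0.406% of all tested genes, while 66 of 74 had a positive log2 fold change, with a median of 0.74 against 0.02 over all tested genes. The 2 were the inhibitory receptors Pirb (log2 1.01, SE 0.15, edgeR adjusted p = 0.0347), a gene of a family with near-identical copies whose count is therefore uncertain, and Sirpa (0.78, SE 0.14, edgeR adjusted p = 0.0487), which binds the signal CD47 on healthy cells. These calls were lost in 8 and 9 of the 10 fits that left out 1 liver. With CCl4 in NTC livers 51 of the 74 were called higher and 6 lower, against 53.9% of all tested genes called in either direction, with a median log2 fold change of 1.68. In sgBap1 livers CCl4 gave 42 higher and 7 lower, against 57%, with a median of 0.96. After CCl4 the guide gave no call among the 74 with edgeR or DESeq2, and 5 had an unadjusted p under 0.05.

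Among receptors that pair with Tyrobp or Fcer1g, 15 of the 18 tested were called higher with CCl4 in NTC livers and none lower. Beside this count and those of the lists that follow stand the 27.4% of all tested genes called higher and the 26.6% called lower in this comparison. With CCl4 in sgBap1 livers these shares were 29% and 28%. Trem2, a lipid-sensing receptor of macrophages that signals through Tyrobp, was at 1.04 ± 0.104 CPM (SD, n = 2) for NTC-Veh, 1.15 ± 0.244 (n = 2) for sgBap1-Veh, 17.6 ± 3.25 (n = 3) for NTC-CCl4 and 19.3 ± 3.59 (n = 3) for sgBap1-CCl4 (log2 4.07 with CCl4 in NTC, edgeR adjusted p = 1.80e-06). Clec4d and Clec4e, receptors for damaged cells and microbes that use Fcer1g, had means of 0.151 and 0.150 CPM in NTC-Veh and of 6.02 and 5.82 in NTC-CCl4 livers, and Trem3 went from 0.0277, under the level of 3 counts, to 0.965. With sgBap1 in vehicle livers the log2 differences of Trem2 and Clec4d were 0.16 (SE 0.30) and 0.05 (SE 0.60), and neither was called. In sgBap1 livers 12 of the 18 were called higher with CCl4 and 1 lower, Klrk1, an activating receptor of natural killer and T cells (log2 -0.70, edgeR adjusted p = 0.0473), which was not called in 9 of the 10 fits that left out 1 liver, nor when scaled by library size alone.

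The Src and Tec family kinases, which act before and beside Syk, split by gene. With CCl4 in NTC livers 6 of 9 were called higher, among them Fgr (log2 2.74), Btk (2.18) and Src (1.69). Zap70, which stands in for Syk in T cells, fell by 0.93 on the log2 scale, Tec by 0.77 and Yes1 by 0.41. The call of Zap70 was lost without NTC-Veh 1 or NTC-CCl4 2, and that of Yes1 without NTC-Veh 2. Scaled by library size alone, 6 were called higher and none of the 9 lower, and the log2 value of Yes1 turned to 0.06. Zap70 was at 12.6 and 6.68 CPM for NTC-Veh, 12.0 and 17.8 for sgBap1-Veh and 3.18 to 5.29 over the CCl4 livers. It did not follow the 5 T cell markers, which summed to 1.61 to 3.73 CPM for NTC-Veh and 4.26 to 8.56 for NTC-CCl4. The cell source of Zap70 was not tested.

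Below Syk, 16 of 20 genes were called higher with CCl4 in NTC livers, led by the adaptor Lat2 (log2 3.26), the phospholipase Plcg2 (2.7), the lipid kinase Pik3cg (2.50) and the exchange factor Vav1 (2.45). The 1 gene called lower was Plcg1 (fell by 0.78 on the log2 scale), the more widely expressed relative of Plcg2. On the inhibitory side all 11 genes were called higher, led by Sirpa (2.44), the lipid phosphatase Inpp5d (2.35) and the receptors Cd300a (2.33) and Lilrb4a (2.26). Ptpn6, the phosphatase that ITIM receptors recruit, was called at 0.79. The direction of these calls was the same when scaled by library size alone, where 18 of 20 and 11 of 11 were called higher and Plcg1 again lower.

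Among the other Fc receptors 2 of 9 were called higher and 2 lower with CCl4 in NTC livers (5 and 2 when scaled by library size alone), beside 27.4% and 26.6% of all tested genes, so nothing is read from this count. Fcgrt, which returns IgG and albumin to the blood, went from 175 ± 13.3 CPM (SD, n = 2) in NTC-Veh to 102 ± 9.26 (n = 3) in NTC-CCl4 livers (log2 -0.78, edgeR adjusted p = 0.00160). Pigr, which carries IgA into bile, fell by 1.78 on the log2 scale (edgeR adjusted p = 0.000121) and by 2.56 in sgBap1 livers. Fcrl1 (log2 1.56, edgeR adjusted p = 0.00179) and Fcrl5, both of B cells, were called higher, the latter from 0.0408 to 0.503 CPM, a call that was lost without NTC-Veh 2. In sgBap1 livers Fcrls was called higher, from 0 counts in both vehicle livers to 0.213, 0.238 and 0.993 CPM with CCl4, the last in the liver with fat cell genes. The call stayed without that liver (edgeR adjusted p = 0.00661) and was lost without sgBap1-Veh 1. Without the liver with fat cell genes Fcrls was also called in NTC livers (edgeR adjusted p = 0.00559). Of the 7 other adaptors with an ITAM or a related motif, which belong to lymphocyte receptors apart from Hcst, only Cd79b was called higher with CCl4 in NTC livers (log2 1.00, edgeR adjusted p = 0.0102), against 5 when scaled by library size alone. Its call was lost without NTC-Veh 2.

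**Figure D5:**
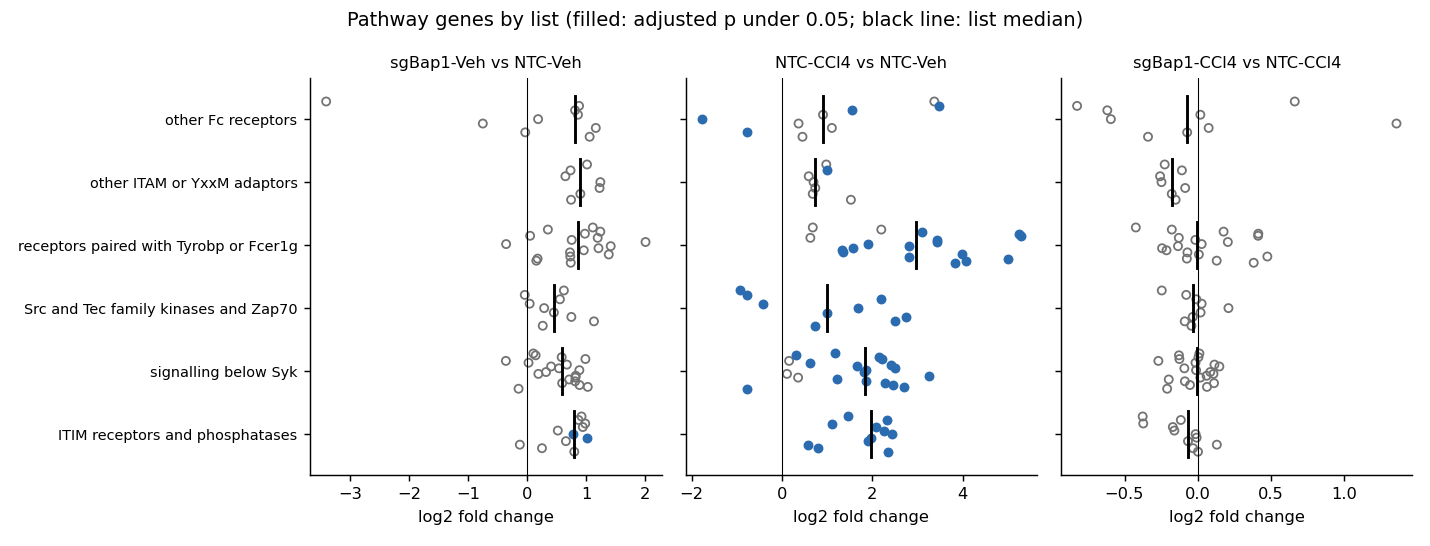
Log2 fold changes of the tested pathway genes by list for sgBap1-Veh against NTC-Veh (left), NTC-CCl4 against NTC-Veh (middle) and sgBap1-CCl4 against NTC-CCl4 (right). Each circle is a gene, filled in blue at an edgeR adjusted p under 0.05, and black lines are list medians. The horizontal scale differs between panels. With CCl4 filled circles lie to the right in most lists, and after CCl4 no circle is filled.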

How the data were processed

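RNA-seq of 10 mouse livers was analysed. The authors aligned stranded mRNA reads (pairs of 50 bases) to GRCm38 with STAR 2.7.6a and quantified genes with Salmon 1.4.0 on GENCODE vM25. The library type set in Salmon is not given in the sources used here. The deposited table holds the authors' estimated counts (expected counts) per gene symbol, not normalized, and 9.22% of the values are not whole. Groups and replicate numbers come from the labels.

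Rounded counts were tested with edgeR 4.0.16 under R 4.3.3. Genes passing filterByExpr (17015 of 55291) were normalized by TMM and fitted in 1 model of the 4 groups with the robust quasi-likelihood method. Tests were two-sided, with Benjamini-Hochberg adjustment over all tested genes of a comparison and a threshold of 0.05. SE is the log2 fold change over the square root of F. Log2 CPM used a prior count of 2. A floor of 3 counts corresponds to 0.0511 to 0.112 CPM.

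The alternatives were DESeq2 1.42.0 (Wald test, and its size factors), library size alone, no filter, only the groups compared, the replicate number as a block, and each liver left out. The quasi-likelihood method of edgeR 3 and division by the longest transcript were added after seeing the data. The scripts were tested on simulated data. Members and lists were chosen with earlier results of these data known. Named pathway genes are those called, at most the 4 largest per list and comparison, with called genes of the minority direction, Ptpn6, Trem2 and Clec4d with sgBap1, and Zap70 per liver chosen after their values were seen. A gene that this rule names and 2 further motifs that were searched are not reported here. Positions come from GENCODE vM21 and promoters from RefSeq, both on GRCm38. Each liver is from 1 mouse, and the chi-square between replicates averaged 15.5 to 90.1 over genes, so none was taken as a repeat of another.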

Additional observations from a re-analysis of the deposited data

How the results depend on the processing

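With 2 livers in each vehicle group, counts of calls with sgBap1 depend on the fit. In sgBap1-Veh against NTC-Veh, 69 genes were called by the main model, 562 by DESeq2's Wald test, 32 with library size alone and 27 with only the 2 groups. Of the 7 genes, DESeq2 called 6, and library size alone and the 2 groups alone called 0. Of the 74 pathway genes these fits called 19, 0 and 0, and 4 were called with DESeq2 size factors, with no filter and with the edgeR 3 method. After CCl4, sgBap1 against NTC gave 502 genes with DESeq2, 94 with no filter and 28 with the 2 groups alone, against 56. For the interaction DESeq2 called 420 genes, 3 of the 7 and 13 of the 74. The 3 were Fcer1g (log2 -0.90), Fcgr1 (-1.04) and Fcgr4 (-1.15). Since the interaction subtracts the vehicle comparison used to pick the 7 genes, these 3 calls are no independent result. No filter gave 34 genes and library size alone 2. The cause of these differences was not tested.

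The replicate numbers of the labels showed no sign of pairing the livers. Correlations of same-numbered livers' deviations from their group means were -0.149 to 0.102 over 13 pairs, 2 of them over 0.1. Livers of other numbers gave -0.157 to 0.157 over 24 pairs, 3 of them over 0.1. In a group of 2 livers the deviations mirror each other, so these pairs are not separate values and a pairing is not excluded. With the replicate number as a block, 1 gene, 0 of the 7 and 0 of the 74 were called with sgBap1 in vehicle livers, and 24 genes after CCl4. With CCl4 in sgBap1 livers the block left 5 of the 7, without Fcgr4.

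Leaving out each liver in turn gave 0 to 150 genes, 0 to 2 of the 7 and 0 to 5 of the 74 for sgBap1 with vehicle, 1 to 71 genes for sgBap1 after CCl4 and 0 to 7 genes for the interaction, 7 without sgBap1-CCl4 2. With vehicle the count of 150 was without sgBap1-CCl4 2 and that of 0 without NTC-Veh 2, and after CCl4 that of 71 was without sgBap1-CCl4 3 and that of 1 without NTC-CCl4 1. A vehicle group left with 1 liver was assumed to vary like the other groups. With CCl4 in NTC livers 7 of the 7 were called under every alternative, and after CCl4 none was called in the guide comparison under any. Library size alone moved the median over all genes of the log2 fold change with CCl4 to 0.50 (NTC) and 0.52 (sgBap1), and the share of higher calls from 50.8% to 80.5% and from 50.9% to 78.3%. No result of the 7 genes reversed its direction past the threshold. Outside the 7, the values of Yes1 (NTC livers) and Kdr (sgBap1 livers) with CCl4 changed sign under library size alone. Both had been called lower by the main model.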

Other observations

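Markers of lymphoid and dendritic cells were low beside those of macrophages. The 5 T cell markers summed to 1.61 to 3.73 CPM for NTC-Veh, 5.91 to 6.41 for sgBap1-Veh, 4.26 to 8.56 for NTC-CCl4 and 3.93 to 6.40 for sgBap1-CCl4. The 5 natural killer cell markers were at 1.58 to 2.12, 3.18 to 3.37, 2.63 to 3.37 and 2.32 to 4.01 CPM in the same order. The 5 B cell markers were at 3.93 to 8.39, 9.39 to 11.5, 9.56 to 13.2 and 8.88 to 10.2 CPM, and the 5 dendritic cell markers at 5.38 to 6.06, 7.54 to 8.84, 7.02 to 7.97 and 7.36 to 8.61 CPM. In each of these 4 lists both sgBap1-Veh livers lay above both NTC-Veh livers. No marker of them was called with sgBap1 in vehicle livers, where 0.406% of all tested genes were called. The 4 platelet markers, where Fcer1g also serves the collagen receptor, were at 3.77 to 3.87, 4.27 to 5.17, 8.28 to 11.6 and 9.12 to 13.8 CPM. The part of these cells in the results was not tested.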
